A study of Mus musculus with 9 samples.

Results

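The expression of 10 immediate early genes was followed in the main olfactory epithelium (MOE), where odours are sensed. They were Fos, Fosb, Jun, Junb, Jund, Egr1, Ier2, Nr4a1, Arc and Atf3. The genes were taken by name, as genes that respond to neuronal activity and to the stress of dissection, and all 10 were found among the 24421 gene rows of the count table. RNA-seq had been performed on whole MOE of 9 mice, 3 each of wild type (WT), heterozygous (het, TAAR enhancer 1 +/-) and homozygous (homo, TAAR enhancer 1 -/-) genotype. TAAR enhancer 1 is a noncoding element of the gene cluster that encodes the trace amine-associated receptors, a small family of olfactory receptors, and the study asked which genes change when it is deleted. The mice were littermates of a CRISPR-Cas9 knockout line, so het and homo mice carried the same deletion, in every cell type, and no further allele or agent was given for any group. The labels give C57BL/6 mice of postnatal day 14 for all 9 libraries, whereas the reporting summary of the study describes mixed strain backgrounds and older mice of this line. Nothing in the labels states how long dissection took, at what hour it was done or what odours the mice had met.

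Immediate early genes are transcribed within minutes of a stimulus, because the factors that switch them on are already present in the cell and are activated by signalling. Most of them encode transcription factors that then act on later genes: Fos and Fosb proteins pair with Jun proteins to form AP-1, Egr1 is a zinc finger factor, Nr4a1 is an orphan nuclear receptor and Atf3 is a stress-induced factor of the ATF family. In the olfactory epithelium odour stimulation induces several of them in sensory neurons, and in many tissues the handling and cutting of tissue does so as well.

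The tissue label held in these libraries. Omp, the marker of mature olfactory sensory neurons, stood between 3045 and 3549 CPM (reads of a gene scaled by TMM to a common library size) and Cyp2g1, a marker of sustentacular cells, between 2067 and 2333 CPM. Libraries held 24583906 to 32631951 reads within genes, which puts 3 reads of any gene at 0.0916 to 0.122 CPM. Reads of Taar2 to Taar5 in sum numbered 227 to 337 in WT, 158 to 176 in het and 1 to 3 in homo libraries. Reads of vomeronasal receptor genes, which belong to another sensory organ of the nose, were more frequent in 3 libraries, homo replicate 2 (120.0 CPM in sum), homo replicate 3 (69.7 CPM) and het replicate 1 (67.5 CPM), than in the other 6 (14.6 to 17.4 CPM). Results on the genes described here are therefore also given without these libraries where that moves them. In whole tissue, fewer cells of a type and less RNA per cell cannot be told apart.

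Immediate early genes are switched on through short promoter elements. Among them are the cAMP response element (CRE) bound by CREB and ATF factors and the CArG box bound by serum response factor. For that reason 4 promoters are shown, from the members whose promoters were used here. Among those members, these 4 exceeded their highest other library by most in 1 mouse, homo replicate 2. Each runs from 250 bases before to 50 bases after the start that RefSeq gives on GRCm38.p6 (the mm10 assembly). RefSeq promoters of 7 of the 10 members were used, namely Fos, Fosb, Jun, Junb, Jund, Nr4a1 and Atf3. The promoters of the other members were not searched, so the counts of motifs below do not cover them. Capitals mark the short CRE core TGACG, on either strand (CGTCA on the other), and TATAAA. The Fos window is chr12:85473640-85473939 (plus strand), the Fosb window chr7:19309996-19310295 (minus strand), the Atf3 window chr1:191183284-191183583 (minus strand) and the Nr4a1 window chr15:101266596-101266895 (plus strand). For Atf3 and Nr4a1 these starts lie inside the span of the gene that GENCODE M21 gives, where further starts are annotated. The Jund window, not shown, surrounds a RefSeq start at position 70697739 of chromosome 8, upstream of the span that GENCODE gives (from 70698949), and none of the motifs searched was in it.
Fos: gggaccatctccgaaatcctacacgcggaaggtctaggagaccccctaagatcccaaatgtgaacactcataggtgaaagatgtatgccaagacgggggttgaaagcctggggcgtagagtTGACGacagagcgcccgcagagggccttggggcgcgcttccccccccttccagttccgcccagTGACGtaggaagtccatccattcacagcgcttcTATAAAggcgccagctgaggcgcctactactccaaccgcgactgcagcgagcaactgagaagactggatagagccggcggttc
Fosb: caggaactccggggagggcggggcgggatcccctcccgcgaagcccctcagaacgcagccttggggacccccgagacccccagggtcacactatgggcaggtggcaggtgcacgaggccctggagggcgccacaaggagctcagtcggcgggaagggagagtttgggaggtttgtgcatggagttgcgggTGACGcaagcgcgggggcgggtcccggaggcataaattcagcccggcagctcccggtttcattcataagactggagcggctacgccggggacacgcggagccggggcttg
Atf3: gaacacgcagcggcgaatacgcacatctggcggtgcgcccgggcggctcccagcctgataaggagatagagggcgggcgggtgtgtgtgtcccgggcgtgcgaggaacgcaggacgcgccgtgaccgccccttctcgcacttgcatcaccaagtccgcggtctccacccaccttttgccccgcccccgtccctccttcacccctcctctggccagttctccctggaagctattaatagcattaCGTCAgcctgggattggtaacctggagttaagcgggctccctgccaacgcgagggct
Nr4a1: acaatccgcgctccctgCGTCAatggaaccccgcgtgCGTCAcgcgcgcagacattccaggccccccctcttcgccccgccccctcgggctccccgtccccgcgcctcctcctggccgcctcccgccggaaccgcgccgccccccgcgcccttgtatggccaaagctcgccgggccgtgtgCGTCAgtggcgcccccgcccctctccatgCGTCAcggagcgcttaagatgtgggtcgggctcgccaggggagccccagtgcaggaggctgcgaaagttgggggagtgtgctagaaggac

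TGACG was held by 5 of the 7 promoters, those of Fos, Fosb, Junb, Nr4a1 and Atf3, while 20.8% of all 32851 RefSeq promoter windows held it. Fos carried it at positions -129 to -125 and -66 to -62 from the start, the second within the longer form TGACGTA. The same longer form, on the opposite strand, was found in Atf3 at positions -9 to -3, and 1.27% of all windows held it. Fosb had a single core at positions -60 to -56, and Nr4a1 had 4. The full palindrome TGACGTCA, which contains this core on both strands, was in none of the 7 windows and in 1.79% of all windows. TATAAA was found in Fos and Junb and in 13.6% of all windows. The AP-1 site TGACTCA (5.2% of windows) and the CArG box (1.63% of windows), the element bound by serum response factor, were in none of the 7. The Egr site GCGGGGGCG was found in Fosb and Nr4a1 and in 2.91% of windows. These matches describe letters within a fixed window, and they were not set against any binding data. Elements outside the window, further upstream or in the gene, were not searched, so absence from it does not mean absence from the gene.

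Expression of the 10 genes spanned a wide range. On a scale of CPM per kilobase of annotated exons, which allows comparison between genes, the mean over 9 libraries was 130 for Jund, 52.5 for Jun, 19.8 for Ier2, 14.2 for Nr4a1, 10.3 for Junb, 5.01 for Egr1, 4.55 for Fos, 2.19 for Atf3, 1.97 for Arc and 0.368 for Fosb. Jund, Jun and Fosb were set apart from their neighbours in this order, with no library of one gene reaching the range of the next. All other neighbours overlapped: Ier2 with Nr4a1, Nr4a1 with Junb, Junb with Egr1, Egr1 with Fos, Fos with Atf3 and Atf3 with Arc. Jund, on chromosome 8 (70698949 to 70700616), Jun, on chromosome 4 (95049034 to 95052222), and Ier2, on chromosome 8 (84661331 to 84662852), each consist of 1 exon in GENCODE M21. The exon of Jund shares 543 bases with Gm11175, that of Jun 232 bases with Junos, and those of Junb 173 bases with Prdx2, in each case on the opposite strand. The libraries were made with a strand-specific kit, but the strand setting of the counting is not given in the sources used here, so reads in those stretches may belong to either gene. Gm11175 and Junos were not analysed here, and Prdx2 (151 to 175 CPM) was not called in homo against WT (log2 fold change 0.089, adjusted p = 0.626 by edgeR).

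In the Fos family, Fosb differed more between single libraries than Fos. Fos (chr12:85473890-85477273, plus strand), the prototype of the class and the usual histological marker of active neurons, stood at 11.1, 12.6 and 11.4 CPM in WT replicates 1 to 3, at 12.6, 7.18 and 7.20 CPM in het and at 10.1, 15.4 and 8.86 CPM in homo. The WT mice lay close together, whereas 1 het mouse lay with WT, the other 2 het mice lay at the bottom and homo replicate 2 lay at the top, so all 3 genotypes overlapped. The means were 11.7 ± 0.774 (SD, n = 3), 8.99 ± 3.11 and 11.4 ± 3.46 CPM. Fosb (chr7:19302696-19310051, minus strand), a close relative of Fos with a lasting truncated form in neurons, stood at 1.77, 1.71 and 1.74 CPM in WT, at 2.71, 1.10 and 1.32 CPM in het and at 1.87, 6.14 and 2.36 CPM in homo. Homo replicate 2 had 151 reads of Fosb and the other 8 libraries 29 to 76 reads. The 3 homo values were above the 3 WT values, but 2 of them by little (1.87 and 2.36 against at most 1.77 CPM), and het spanned WT.

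Of the Jun family, Jun was the most even over the 9 mice and Junb the least. Jun, the main partner of Fos proteins, stood at 163, 153 and 160 CPM in WT, at 175, 161 and 162 CPM in het and at 175, 181 and 177 CPM in homo, with means of 159 ± 5.18, 166 ± 7.80 and 178 ± 3.01 CPM. The 3 homo libraries lay above the other 6, although homo replicate 1 and het replicate 1 were the same to 3 digits. Jund, the most constantly expressed Jun protein in most tissues, stood at 217, 189 and 200 CPM in WT, at 199, 182 and 199 CPM in het and at 219, 269 and 277 CPM in homo. Here too the homo libraries did not overlap with WT or het, although homo replicate 1 (219 CPM) was next to the highest WT library (217 CPM), and the 2 libraries well above the rest were homo replicates 2 and 3. Junb (chr8:84974484-84978718, minus strand), a Jun protein that can dampen AP-1, stood at 21.4, 26.1 and 22.8 CPM in WT, at 31.0, 19.6 and 17.0 CPM in het and at 23.0, 31.2 and 22.1 CPM in homo. For Junb the highest 2 libraries were het replicate 1 and homo replicate 2, and the genotypes overlapped throughout.

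Egr1, Nr4a1 and Atf3 shared a single high library. Egr1 (chr18:34859823-34864984, plus strand) stood at 22.0, 25.8 and 19.8 CPM in WT, at 22.2, 17.8 and 19.4 CPM in het and at 19.3, 35.2 and 20.8 CPM in homo. Nr4a1 (chr15:101254269-101274795, plus strand) stood at 51.1, 51.4 and 41.2 CPM in WT, at 46.6, 43.7 and 42.6 CPM in het and at 47.1, 74.4 and 50.8 CPM in homo. Atf3 (chr1:191170296-191218039, minus strand) stood at 3.33, 4.18 and 3.17 CPM in WT, at 3.35, 3.55 and 3.38 CPM in het and at 3.49, 13.7 and 4.22 CPM in homo. Homo replicate 2 was the highest library for all 3, and the other 2 homo mice were within or next to the range of WT. In reads, Atf3 had 337 in homo replicate 2 and 82 to 137 in the other 8 libraries, a gap far beyond the counting error of these numbers, which was 5.45% at 337 reads and 11.0% at 82.

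Ier2 and Arc had their highest value in another library, het replicate 1. Ier2, a small nuclear protein of the class, stood at 29.5, 28.6 and 28.0 CPM in WT, at 33.3, 29.4 and 28.7 CPM in het and at 28.1, 33.0 and 31.9 CPM in homo, so the whole range over 9 mice was 1.19-fold. Arc (chr15:74669083-74672570, minus strand), which encodes a synaptic protein that forms virus-like capsids and is induced by synaptic activity, stood at 6.42, 5.59 and 7.19 CPM in WT, at 7.44, 6.69 and 4.43 CPM in het and at 4.97, 5.57 and 6.00 CPM in homo. The lowest library for Arc was het replicate 3, and homo replicate 2 lay within the range of the other homo mice.

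**Figure D1:**
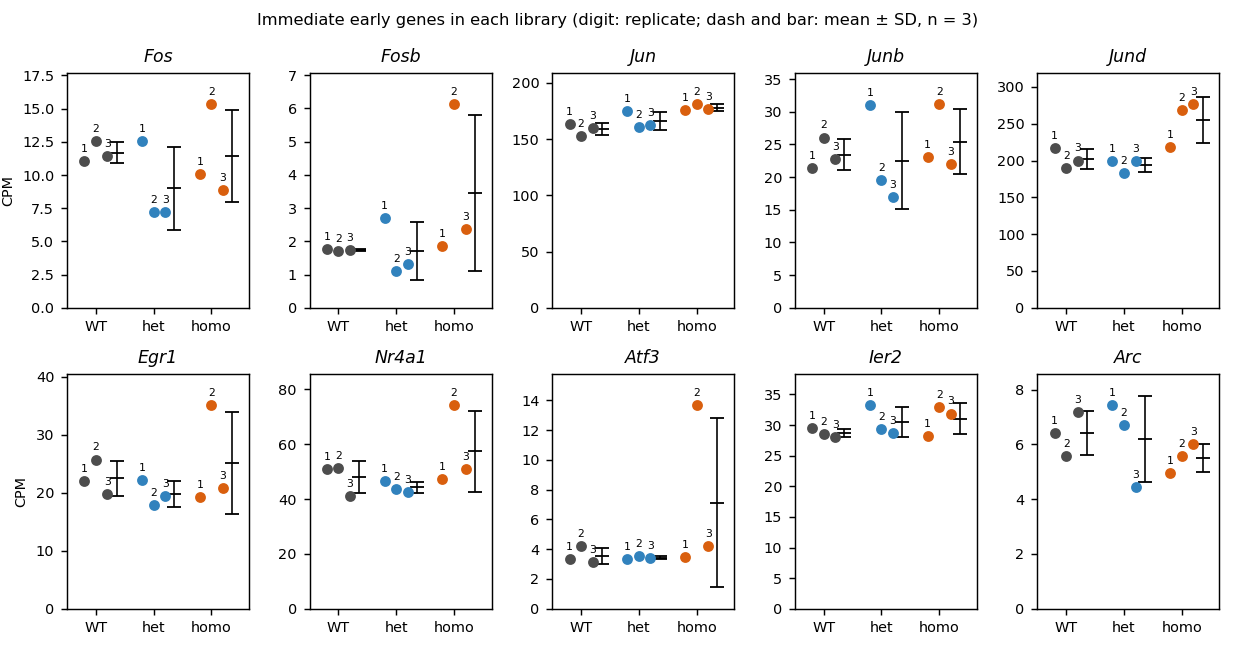
CPM (linear axis from 0) of each of the 10 immediate early genes in the 9 libraries, with points for WT (grey), het (blue) and homo (orange) mice, the replicate number above each point, and beside each group a dash and bar for its mean ± SD (n = 3). Homo replicate 2 stands above all other mice for Fosb (6.14 CPM) and Atf3 (13.7 CPM) and less so for Fos, Egr1 and Nr4a1, whereas for Jund both homo replicates 2 and 3 are high (269 and 277 CPM).

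None of the 10 genes passed the test in any comparison of genotypes. With the quasi-likelihood test of edgeR and Benjamini-Hochberg adjustment over 20213 genes at a threshold of 0.05, 0 of 10 were called in homo against WT (0.0495% of all genes tested were called), 0 in het against WT (0.00495%), 0 in homo against het (0.114%) and 0 for any difference among the 3 genotypes (0.0643%). At an unadjusted p under 0.05 there were 4, 0, 4 and 5 of the 10 genes, against 9.26%, 3.25%, 10.4% and 8.45% of all genes tested. DESeq2 with its default settings called 1, 0, 1 and 1, which was Jund in both pairs, and at an unadjusted p under 0.05 it had 3, 0, 4 and 3, while its filter left 6 of the 10 genes without an adjusted p in homo against WT and 3 in homo against het.

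Jund came nearest to the threshold. It was higher in homo than in WT by a log2 fold change of 0.33 ± 0.076 (SE, 95% interval 0.17 to 0.50, adjusted p = 0.221 by edgeR) and higher in homo than in het by 0.40 ± 0.076 (0.24 to 0.56, adjusted p = 0.0649), in 3 of 3 homo mice each time. DESeq2 gave an adjusted p of 0.00437 and 5.7e-05 for the same differences, and edgeR called Jund when homo replicate 1 was left out (adjusted p = 0.0155 and 0.00356), in homo against het when het replicate 3 was left out (0.0327) and in homo against het without a filter on low counts (0.0181). Over the 17 alternative settings adjusted p ran from 0.00437 to 0.925 in homo against WT. Without the 3 libraries with vomeronasal receptor reads, which leaves homo replicate 1 as the only homo mouse, the log2 fold change against WT was 0.11 (adjusted p = 0.925).

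The sizes of the other fold changes depended on homo replicate 2 to different degrees. Fosb and Atf3 had the largest fold changes, 0.98 ± 0.39 (95% interval 0.15 to 1.80, adjusted p = 0.464) and 0.98 ± 0.37 (0.19 to 1.77, adjusted p = 0.449) in homo against WT by edgeR. Without homo replicate 2 they were 0.28 (adjusted p = 0.817) and 0.10 (adjusted p = 0.888). Against het the same genes gave 1.00 and 1.04, and 0.31 and 0.17 without that mouse. Jun differed little, by 0.17 ± 0.047 in homo against WT (adjusted p = 0.343) and 0.15 without homo replicate 2. Nr4a1 was 0.26 ± 0.13 in homo against WT (adjusted p = 0.568) and 0.37 ± 0.13 in homo against het (adjusted p = 0.331), and 0.033 and 0.15 without homo replicate 2. Egr1 had 0.15 in homo against WT with that mouse and -0.17 without it, Junb 0.11 and -0.056, and Fos -0.037 and -0.30. Arc had -0.21 with that mouse and -0.22 without it, and Ier2 had 0.11 and 0.066.

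In het against WT the fold changes of 9 members lay between -0.19 and 0.087, and that of Fos was -0.38 ± 0.21 (95% interval -0.82 to 0.064, adjusted p = 1.00 by edgeR). Fos without het replicate 1 had -0.70, since the remaining het mice were both near 7.2 CPM, and over the alternative settings its adjusted p ran from 0.181 to 1.00. Its intervals in the other pairs were -0.48 to 0.40 in homo against WT and -0.10 to 0.79 in homo against het. With 3 mice per genotype, differences of Fos anywhere within these bounds remained compatible with the data.

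By direction, 8 of 10 genes had a higher value in homo than in WT (49.8% of all genes did), 2 of 10 in het than in WT (51.5%) and 9 of 10 in homo than in het (49.5%). The median log2 fold changes of the 10 genes were 0.16, -0.062 and 0.34, beside medians over all genes of -0.00057, 0.0033 and -0.0017. Without homo replicate 2 the medians of the comparisons with homo mice became 0.050 and 0.085, with 6 of 10 and 8 of 10 higher. Without the 3 libraries with vomeronasal receptor reads 3 of 10 were higher in homo than in WT, with a median of -0.028. Libraries of the 2 genotypes did not overlap for 3 of 10 genes in homo against WT, Fosb, Jun and Jund (15.4% of all genes tested did not overlap), for 0 in het against WT (8.68%) and for 3 in homo against het, Jun, Jund and Nr4a1 (14.1%). The 3 comparisons share mice and are not independent of each other.

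**Figure D2:**
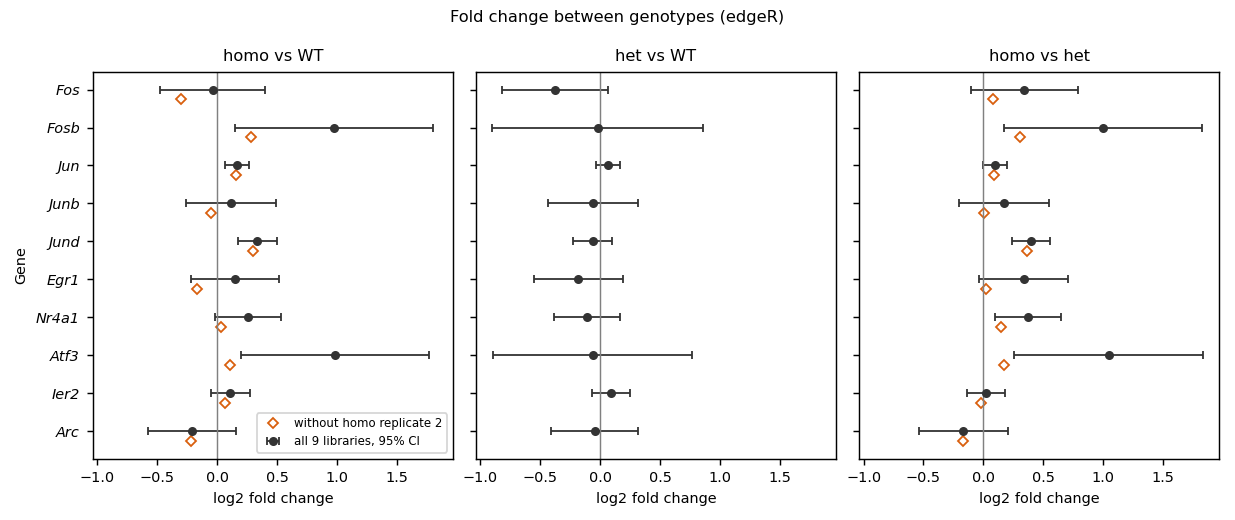
Log2 fold change (linear axis, 0 marked) of each gene in homo against WT, het against WT and homo against het, as filled points with 95% intervals from edgeR over 9 libraries, and as open diamonds for the fit without homo replicate 2. The intervals of Jund lie above 0 in both comparisons of homo mice, and the estimates of Fosb (0.98 to 0.28) and Atf3 (0.98 to 0.10) fall towards 0 in homo against WT when the 1 mouse is left out.

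By library in place of genotype, 1 mouse stood out. Homo replicate 2 was the highest library for 7 of the 10 genes, Fos, Fosb, Jun, Junb, Egr1, Nr4a1 and Atf3, whereas it was the highest for 15.3% of the 16167 genes with a mean of at least 1 CPM. Het replicate 1 was highest for Ier2 and Arc and homo replicate 3 for Jund. Het replicate 2 was the lowest library for 4 genes, Fos, Fosb, Jund and Egr1, WT replicate 3 for 3, het replicate 3 for 2 and WT replicate 2 for 1. In the same order, these libraries were lowest for 13.5%, 10.8%, 9.61% and 5.92% of the 16167 genes. No member had its highest or lowest value in WT replicate 1 or homo replicate 1. Those libraries were highest for 7.88% and 9.09% of genes and lowest for 7.9% and 8.4%. At such shares, 0 of 10 members is not unusual.

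The size of the excess in homo replicate 2 set Atf3 and Fosb apart from nearly all genes of the table. Atf3 was 3.25 times its highest value in any other library and 3.99 times the median of the other 8, and Fosb was 2.27 and 3.50 times. Ranked by the ratio to the highest other library, Atf3 was number 1 and Fosb number 2 of 16167 genes, Nr4a1 number 14 (1.45 times), Egr1 number 22 (1.37 times) and Fos number 97 (1.22 times). Junb and Jun were only just above their next library, 1.01 and 1.02 times. Altogether 10 genes (0.0619%) were at least 1.5 times their highest other library in homo replicate 2, while between 1 and 24 genes were so in each other library, with none of the 10 members among them.

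Among these genes, looked up after their values were seen, were Atf3, Fosb, Nr4a3, Cxcl1, Cxcl2, Tnfaip3, Ankrd63 and Calr4, and none of them was a vomeronasal receptor gene. Nr4a3, the sister gene of Nr4a1, stood at 14.1 CPM in homo replicate 2 and at 2.80 to 8.83 CPM elsewhere. Cxcl1 and Cxcl2, chemokines that draw neutrophils, stood at 21.1 and 13.7 CPM there, and their next libraries were WT replicate 2 for both, with 11.9 and 6.96 CPM. Tnfaip3, which restrains NF-kB signalling, stood at 41.7 CPM against 10.2 to 24.8 CPM. Ankrd63 and Calr4 were also high in het replicate 1 and homo replicate 3, the other libraries with vomeronasal receptor reads, at 3.42 and 2.75 CPM for Ankrd63 against at most 0.57 CPM in the 6 others. Atf3 did not follow those libraries in the same way, with 3.35 CPM in het replicate 1 and 4.22 CPM in homo replicate 3 against up to 4.18 CPM in WT. Fosb, Fos and Junb were higher in het replicate 1 than in the other het mice, at 2.71, 12.6 and 31.0 CPM. For Fosb and Ier2, but for no other member, the 3 libraries with vomeronasal receptor reads were the 3 highest. In het replicate 1, homo replicate 2 and homo replicate 3 Fosb stood at 2.71, 6.14 and 2.36 CPM, against at most 1.87 CPM elsewhere. Ier2 stood there at 33.3, 33.0 and 31.9 CPM, against at most 29.5 CPM elsewhere. Whether the source of the vomeronasal receptor reads in these 3 libraries had a part in the values of the immediate early genes was not tested.

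**Figure D3:**
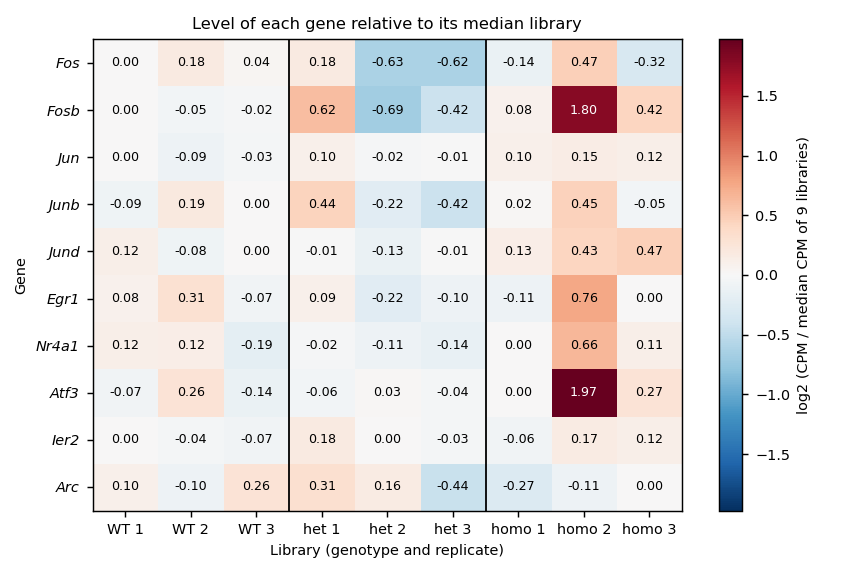
Each cell gives log2 of the CPM of a gene (rows) in a library (columns) over the median of that gene in the 9 libraries, with red above and blue below it, and vertical lines between WT, het and homo mice. The column of homo replicate 2 is red for all genes but Arc, strongest for Atf3 and Fosb, while Fos is lowest in het replicates 2 and 3.

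The spread between mice was larger for most of these genes than for other genes. From the lowest to the highest library Fosb varied 5.60-fold, Atf3 4.32-fold, Fos 2.14-fold, Egr1 1.97-fold, Junb 1.83-fold, Nr4a1 1.80-fold, Arc 1.68-fold, Jund 1.52-fold, Ier2 1.19-fold and Jun 1.18-fold. The median of the 10 was 1.82-fold and that of the 16167 genes 1.24-fold. Without homo replicate 2 Atf3 fell to 1.33-fold and Nr4a1 to 1.25-fold, whereas Fosb, at 2.47-fold, and Fos, at 1.75-fold, still varied among the 8 remaining mice, and the median of the 10 was 1.48-fold. The biological coefficient of variation that edgeR estimated between mice of 1 genotype was 31.4% for Fosb, 30.0% for Atf3, 17.4% for Fos, 14.8% for Junb, 14.6% for Egr1, 13.5% for Arc, 11.0% for Nr4a1, 7.36% for Jund, 6.19% for Ier2 and 5.02% for Jun, beside a median of 6.36% over all genes. Because this measure depends on level, each gene was also set among genes of 0.5 to 2 times its mean: Nr4a1, Atf3, Junb, Egr1, Fosb, Fos and Jund exceeded 97.4% to 99.5% of them, Arc 87.3%, Ier2 61.0% and Jun 48.9%. Jun and Ier2 thus varied about as much as other genes of their level.

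**Figure D4:**
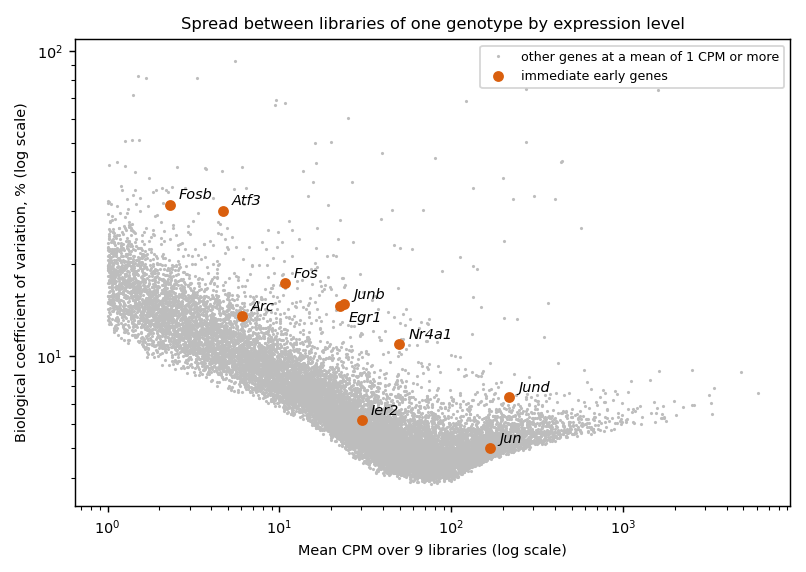
Biological coefficient of variation between mice of 1 genotype (percent, log axis) against mean CPM over 9 libraries (log axis), with the 10 immediate early genes in orange over all genes with a mean of at least 1 CPM in grey. Fosb, Atf3, Fos, Egr1, Junb and Nr4a1 lie at the upper edge of the cloud, whereas Jun (5.02%) and Ier2 (6.19%) lie within it.

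Fos was used as the reference for genes of like pattern, by Pearson's r of log2 CPM over the 9 libraries, which share their depth and composition, so r is given as a description. Junb was closest among the members (r = 0.90, number 10 of 16166 genes), then Egr1 (0.81, number 68), Fosb (0.77, number 98), Nr4a1 (0.65, number 371) and Atf3 (0.55, number 849). Ier2 had 0.40, Jund 0.30, Arc 0.27 and Jun 0.27, and the median of the 9 was 0.55 beside -0.0018 for all genes. Leaving out homo replicate 2, Junb kept 0.85, Egr1 0.75 and Fosb 0.66, but Atf3 had -0.014, Jun -0.035 and Jund -0.042. Outside the 10 genes the highest r values were those of Pmel (0.96), Mgl2 (0.95), B130024G19Rik (0.93), Acr (0.93) and Slc16a13 (0.92). For 4 of these 5 genes het replicates 2 and 3 were the 2 lowest libraries, as for Fos, and for B130024G19Rik homo replicate 3 lay between them. Of 30 other immediate early genes ranked, 4 were within the first 100, and they are named for that: Nfkbiz (0.87), Btg2 (0.81), Zfp36 (0.80) and Nr4a3 (0.79).

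A wider list of 32 other immediate early genes was examined next, from the Egr, Nr4a, Klf and Dusp families and other rapid-response genes. None of the 32 was called by edgeR in any pair of genotypes, with 2, 2 and 4 at an unadjusted p under 0.05 in homo against WT, het against WT and homo against het. These counts are near the shares of all genes tested, 9.26%, 3.25% and 10.4%. In homo against WT 20 were higher and 12 lower, with a median log2 fold change of 0.043, and in het against WT 24 were higher and 8 lower, with a median of 0.060. In homo against het, where 9 of the 10 members were higher, 14 of this list were higher and 18 lower, with a median of -0.011. The smallest p in homo against WT was that of Cyr61, a secreted matrix protein and target of serum response factor and YAP (log2 fold change -0.21 ± 0.096, adjusted p = 0.531). For 11 of the 32 homo replicate 2 was the highest library, among them Nr4a3 and, picked after their values were seen, Btg2 (86.8 CPM against 53.3 to 67.5 CPM elsewhere), Dusp1 (76.3 against at most 65.0 CPM) and Nfkbiz (53.8 against 34.0 to 50.7 CPM). In sum, however, het replicate 1 was the highest library for this list, at 893 CPM, before homo replicate 2 at 854 CPM, and the other 7 libraries lay between 712 and 778 CPM. Npas4, also picked afterwards, was not among the 11 and stood at 5.08 CPM in homo replicate 2, within the range of the others of 4.25 to 6.70 CPM. Nr4a2 and Egr3, picked afterwards too, were among the 11. They stood at 14.2 and 10.1 CPM there, against at most 10.7 and 8.19 CPM elsewhere.

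No gene upstream of or beside this response passed the test in the next 3 lists. Their counts at an unadjusted p under 0.05 by edgeR are for homo against WT, het against WT and homo against het. Of all genes tested 9.26%, 3.25% and 10.4% were under 0.05 in these pairs. Of 19 upstream regulators (kinases, CREB and serum response factor with their cofactors) 0 were called in any pair, with 4, 0 and 2 at an unadjusted p under 0.05, and their sums spanned only 1402 to 1441 CPM. The smallest p among them in homo against WT was that of Mkl2, a cofactor of serum response factor (log2 fold change -0.20 ± 0.048, adjusted p = 0.258), at 70.5 to 74.7 CPM in homo and 82.7 to 86.7 CPM in WT. Of 12 heat shock genes 0 were called (4, 0 and 2 at an unadjusted p under 0.05). In homo mice 10 were higher and 2 lower than in WT, and 10 higher and 2 lower than in het. Their sum was 754, 801 and 802 CPM in homo, 739 to 747 CPM in WT and 730 to 749 CPM in het. Hspe1 had the smallest p of them (0.19 ± 0.081, adjusted p = 0.492 by edgeR). Homo replicate 2 was the highest library for 4 of the 12 heat shock genes, beside 15.3% of genes with a mean of at least 1 CPM. The strongly inducible Hspa1a, picked after its values were seen, was not among these 4. It stood at 5.12 CPM in homo replicate 2, within the 4.36 to 6.84 CPM of the other libraries. Of 6 genes that depend on activity in olfactory sensory neurons 0 were called (1, 0 and 1 at an unadjusted p under 0.05), and Hist2h2be had the smallest p (0.098 ± 0.044, adjusted p = 0.522). No gene of these 3 lists was among the 10 that were at least 1.5 times their highest other library in homo replicate 2. Only 0.0619% of the 16167 genes were, so lists of this size would rarely hold any.

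Of 7 genes that respond to glucocorticoids 1 was called, Zbtb16, a zinc finger factor, which was lower in homo than in het (log2 fold change -1.88 ± 0.31, adjusted p = 0.0337 by edgeR) and at -1.39 ± 0.31 against WT (adjusted p = 0.221). It stood at 8.75, 15.7 and 7.19 CPM in WT, at 13.1 to 17.7 CPM in het and at 6.52, 2.15 and 3.37 CPM in homo. Its lowest library was homo replicate 2, the one with the highest Atf3 and Fosb, and a link between these levels was not tested.

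Markers of the cell types of the tissue were read beside these values. No marker of mature neurons (10 genes), immature neurons (5), sustentacular cells (6), basal cells (5), connective tissue (6), endothelium (6), macrophages (6) or neutrophils (6) was called by edgeR in any pair. Some lists nevertheless leaned one way beside the higher values of the members in homo mice. Of all genes tested 49.8% were higher in homo than in WT and 49.5% higher in homo than in het. At an unadjusted p under 0.05 by edgeR were 9.26% and 10.4% of all genes in these 2 pairs. Connective tissue markers were lower in homo for 5 of 6 genes against WT (3 at an unadjusted p under 0.05) and for 6 of 6 against het (4 under 0.05), with medians of -0.093 and -0.15. Endothelial markers were lower for 5 of 6 (2 under 0.05) and 6 of 6 (3 under 0.05), with medians of -0.17 and -0.18. Mature neuron markers were higher in homo for 9 of 10 against WT (3 under 0.05) and 8 of 10 against het (1 under 0.05), with medians of 0.077 and 0.040. Immature neuron markers were higher in homo for 4 of 5 against WT (0 under 0.05) and 5 of 5 against het (1 under 0.05), with medians of 0.071 and 0.083. Their sums were 1859 to 1869 CPM in homo, 1759 to 1801 CPM in WT and 1692 to 1892 CPM in het. The lists of sustentacular cells, basal cells, macrophages and neutrophils each had at most 1 gene under 0.05 in any pair. In homo replicate 2 the sums of the connective tissue and endothelial lists were the lowest of the 9 libraries, at 11231 and 118 CPM, against 11468 to 14342 and 119 to 137 CPM. The summed neutrophil markers, 283 to 860 CPM, were nearly all Ltf (266 to 847 CPM), which nasal glands also secrete. The other 5 neutrophil markers summed to 13.2 CPM in homo replicate 2, within the range of the other libraries of 13.0 to 18.1 CPM. Muscle markers summed to at most 2.76 CPM. Of 5 red blood cell genes only Alas2 had reads, since the 4 globin genes Hba-a1, Hba-a2, Hbb-bs and Hbb-bt were at 0 in all libraries. Why the globin genes had no reads was not examined. The part of cell composition in the levels of the immediate early genes was not tested.

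**Figure D5:**
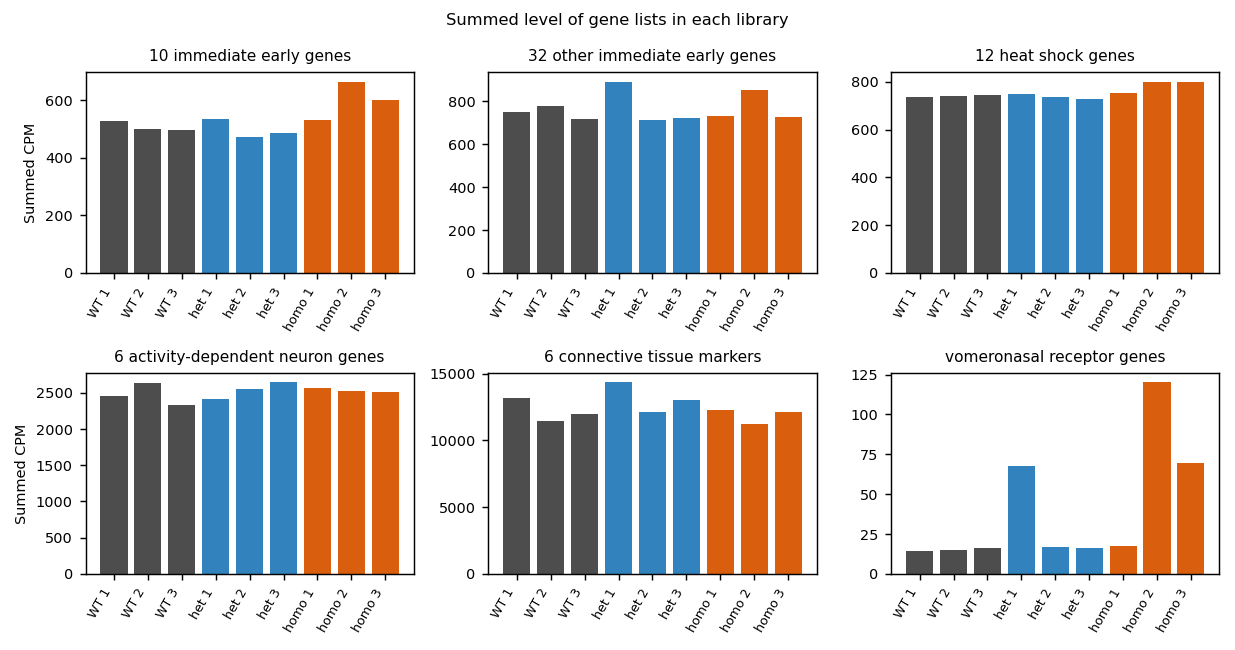
Summed CPM (bars from 0) of 6 gene lists in each library, WT in grey, het in blue and homo in orange. The 10 immediate early genes are highest in homo replicate 2 (665 CPM), the 32 others in het replicate 1 (893 CPM), and connective tissue markers are lowest in homo replicate 2 (11231 CPM). Heat shock genes differ little, with the homo mice (754 to 802 CPM) above WT and het mice, and activity-dependent genes are nearly level. Vomeronasal receptor genes stand out in het replicate 1 and homo replicates 2 and 3.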

How the data were processed

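RNA-seq libraries of whole MOE tissue, 3 each of WT, het and homo mice, were made by the authors with polyA selection and a strand-specific kit. The deposited table used here holds raw counts of reads per gene on GRCm38 (mm10). The submitters' processing notes name Trimmomatic 0.36, HISAT2 2.1.0, HTSeq 0.6.1p1 and DESeq2 1.20.0, while the methods of the study name featureCounts as the counter, and the strand setting of the counting is not given in the sources used here. A second table holds a signal that the authors made by dividing the counts by 1 size factor per library, and it served only as a check of the counts. Summary rows for reads in no gene (21.6 to 22.4% per library), with several map positions (16.9 to 19.4%) or ambiguous (1.29 to 1.35%) entered neither library sizes nor tests.

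Genotypes were taken from the sample titles. Genes with at least 10 counts over the 9 libraries (20213 genes) were scaled by TMM and tested by the quasi-likelihood method of edgeR 4.0.16 (R 4.3.3) in a fit of all 9 libraries on genotype alone, with Benjamini-Hochberg adjustment at 0.05. SE values were taken as the log2 fold change over the root of F, and 95% intervals from the t quantile of the same fit. CPM use TMM library sizes, except for vomeronasal receptor genes, which use raw library sizes, and log2 CPM for correlations had a prior count of 2. Descriptions over all genes used those with a mean of at least 1 CPM. Counting errors are Poisson errors, and since the reads carry no molecular identifiers they cover counting only. Every pair of libraries of 1 genotype differed beyond sampling (chi-square over its degrees of freedom 4.47 or more), so each counted as 1 mouse. On simulated counts with 200 changed genes the test recovered 84.5% of them, for homo against WT among 20067 genes. Of its calls there 9.14% were unchanged genes, a share above the adjusted p threshold of 0.05. Recovery at the fold changes and the spread between mice of the 10 members was not tested.

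The members, the gene lists, the tests and the alternatives were chosen with earlier results of these data known. Genes named beside the 10 members are, from each wider list, up to 3 called in any pair of genotypes or else the 1 with the smallest p in homo against WT, and the 5 genes with the highest r with Fos, and further names are marked where they occur as picked after their values were seen. The alternatives were DESeq2 1.42.0 in its default form, its size factors within edgeR, filterByExpr or no filter on low counts, only the 6 libraries compared, the replicate number as a block, vomeronasal receptor expression as a covariate, and leaving out each library or the 3 libraries with vomeronasal receptor reads. Gene spans, exon lengths and overlaps are from GENCODE M21, and promoter sequences from RefSeq for GRCm38.p6.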

Additional observations from a re-analysis of the deposited data

How the results depend on the processing

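The count of 0 members called was unchanged in het against WT under every alternative run. In homo against WT it was 1 under DESeq2 and 0 to 1 with each library left out in turn, in homo against het 1 under DESeq2, 1 without a filter on low counts and 0 to 1 with a library left out, and for any difference 1, 1 and 0 to 1, and in the pairs of genotypes the gene was always Jund. Over all genes, homo against WT gave 10 calls, 63 under DESeq2, 47 with only the 6 libraries compared and 8 to 33 with a library left out (33 without het replicate 3). Het against WT gave 1 call, 3 under DESeq2, 0 with only the 6 libraries, 0 with the replicate block and 0 to 1 with a library left out. Homo against het gave 23 calls, 130 under DESeq2, 50 without a filter, 11 with only the 6 libraries, 41 with the replicate block, 6 without the 3 libraries with vomeronasal receptor reads, 8 with vomeronasal receptor expression as a covariate and 7 to 190 with a library left out (7 without het replicate 1, 190 without het replicate 3). Any difference gave 13 calls, 123 under DESeq2, 33 without a filter, 20 with the replicate block, 7 with the covariate and 7 to 70 with a library left out. The cause of these changes was not tested.

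Of 510 fold changes of single members under an alternative, 475 kept their direction and their side of the threshold, 6 passed the threshold (all of Jund) and 29 changed sign. In homo against WT the sign changed without the 3 libraries with vomeronasal receptor reads and with the covariate for Junb (-0.028 and -0.29), Egr1 (-0.22 and -0.25), Ier2 (-0.029 and -0.049) and Nr4a1 (-0.025 and -0.012), without the 3 libraries for Atf3 (-0.039) and with the covariate for Fosb (-0.18). In homo against het it changed for Ier2 (-0.047 and -0.064) and, with the covariate, for Junb (-0.021). With a library left out, the log2 fold change in homo against WT ran from -0.30 to 0.11 for Fos, from -0.056 to 0.20 for Junb and from -0.17 to 0.31 for Egr1. In het against WT it ran from -0.52 to 0.21 for Fosb, from -0.36 to 0.11 for Junb, from -0.20 to 0.14 for Arc and from -0.14 to 0.073 for Atf3, and in homo against het from -0.018 to 0.092 for Ier2. The cause was not tested. The median spread of the 10 genes, 1.82-fold, was 1.38-fold without the 3 libraries and 1.48-fold to 1.82-fold with a library left out, and the median r with Fos, 0.55, was 0.39 to 0.63.

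Same-numbered mice varied together weakly at most, with r of their deviations from the genotype means from -0.16 to 0.30. The highest values were 0.25 and 0.30, between het and homo mice of replicates 2 and 3. The replicate numbers were not taken as pairs, and the block changed the call of none of the 10 genes. Fosb, at 29 reads in its lowest library, had a counting error of 18.6% there, so small differences of Fosb were not detectable at this depth. A fit that leaves homo with 1 mouse assumes that this mouse varies like the others.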
